A study of Mus musculus with 10 samples.

Results

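The genes described here encode the machinery of synaptic vesicle fusion in the mouse brain, the SNARE proteins and the proteins that work with them. A gene belonged to the set when the symbol matched to a probe's accession was that of a synaptotagmin (Syt) or synaptotagmin-like gene (Sytl), a syntaxin (Stx) or syntaxin-binding protein (Stxbp), a VAMP, SNAP-23, SNAP-25, SNAP-29, SNAP-47, the AP180 gene Snap91, a complexin (Cplx), a synapsin (Syn1 to Syn3), synaptophysin (Syp), synaptoporin (Synpr), a synaptogyrin (Syngr) or an SV2 protein. No measured value entered this rule. The name table held 72 such genes, of which 69 had a probe on the array, out of 18537 named genes in all. The members were covered by 125 of 41174 probes. No probe matched Sv2c, Syt5 or Vamp9.

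At a nerve terminal, transmitter is released when a synaptic vesicle fuses with the plasma membrane. Fusion is driven by SNARE proteins, which zip together from opposite membranes. The synaptobrevins on the vesicle, encoded by Vamp1 and Vamp2, pair with a syntaxin and SNAP-25 on the plasma membrane. Syntaxin-binding proteins act on this step, complexins clamp and promote the assembled complex, and synaptotagmins such as Syt1 sense the calcium that triggers fusion. Synapsins tether vesicles to each other, while synaptophysin, synaptogyrins and SV2 proteins are carried in the vesicle membrane. The same families have widely expressed members, such as Snap23, Vamp3, Vamp8, Stx4a and Stxbp3, that serve secretion and membrane traffic in many other tissues.

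The values come from 10 dual dye arrays, each with RNA of the left hemibrain of a male C57BL/6J mouse labeled with Cy-5. Animals arrived at 3 weeks of age, were housed singly on a standard lab diet (SD) or a diet enriched in n-3 PUFA (FD) for 20 weeks, and were taken at 5 months. All arrays carried a common RNA in Cy-3, which the methods describe as a commercial reference and the sample labels as pooled hemibrain of SD-fed mice. The diet of an array was not settled, because the diet entries give FD for all 10 hemibrains, the descriptions call the same samples controls, and the methods name 4 FD and 3 SD arrays. The diets were therefore not compared, and SD beside a value stands for the standard deviation. Each gene is given as a log2 ratio, hemibrain (Cy-5) over reference (Cy-3), so that a value of 2 is a ratio of 4. The arrays are of different animals whose diets may differ, and the SD and the p-values measure the spread between these arrays. Dyes were not swapped, so an effect of the dye itself cannot be told apart from a difference between the RNAs.

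The tissue was checked with marker genes of cell types. A probe is called detected in a dye on an array where the deposited flag marks it as well above background. A gene was called higher or lower when limma's adjusted p was under 0.05 and the ratio at least 1.5-fold, which 34.5% of the 18537 genes met in the higher and 27.4% in the lower direction. All measured neuron (8), astrocyte (6) and oligodendrocyte (6) markers were higher in the hemibrain and detected in Cy-5 on every array, with median log2 ratios of 4.79, 5.66 and 4.94. Microglia markers were higher for 5 of 6 and endothelial markers for 3 of 5. Of the 4 measured liver markers, 3 were not detected in Cy-5 on any array, and Ttr, which the choroid plexus also makes, was at 6.67. Markers of proliferating cells were lower for 4 of 5 (median -6.18) and fibroblast markers for 5 of 5 (median -4.33). The brain markers were thus much dimmer in the Cy-3 RNA than in the hemibrain, and the Cy-3 RNA is called the reference here. In such bulk RNA, more cells of a type and more RNA per cell cannot be told apart. Each array held 45018 spots, with no saturated spot among the 43379 that were not controls. The array of animal C10-434 was dim in Cy-5, with 49.6% of probes detected and a median signal of 28.5, where the remaining 9 arrays had 68.2% to 76.9% and 60.0 to 171. For C10-437 the label and the file disagree on the place of the array on its slide (5 and 1). Without it 40 members were higher and 15 lower in the counts given further on, against 42 and 15 with it. Syn2 and Syt13 then had too few values to be tested, and all 67 other members kept their calls.

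The 250 bases before the start of 4 members are shown because they pair genes of the neuronal release machinery (Syn1 and Syt1) with widely expressed relatives of release genes (Snap23 and Vamp8), whose ratios are given further on. The sequences are those of RefSeq's promoter table (GRCm38.p6), which held 53 of the 69 members, and capitals mark the motifs searched for on both strands. These were TCAGCACC (the left part of RE1, the element bound by the neuronal gene repressor REST), TGACGTCA (CRE, bound by CREB), CCAAT and GGGCGG (the GC box). No motif overlapped another in the sequences shown.
Syn1, chrX:20920919-20921168, minus strand: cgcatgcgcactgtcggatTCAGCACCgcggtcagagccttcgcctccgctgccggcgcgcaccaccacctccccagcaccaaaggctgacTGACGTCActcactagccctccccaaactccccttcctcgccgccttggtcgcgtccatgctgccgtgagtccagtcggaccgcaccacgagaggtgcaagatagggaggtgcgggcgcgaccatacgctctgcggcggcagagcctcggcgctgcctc
Syt1, chr10:109010976-109011225, minus strand: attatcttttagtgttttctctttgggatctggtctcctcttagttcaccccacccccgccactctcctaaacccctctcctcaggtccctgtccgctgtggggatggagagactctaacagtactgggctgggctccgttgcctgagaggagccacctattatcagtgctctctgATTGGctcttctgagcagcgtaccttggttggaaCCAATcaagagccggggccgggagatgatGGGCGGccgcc
Snap23, chr2:120567421-120567670, plus strand: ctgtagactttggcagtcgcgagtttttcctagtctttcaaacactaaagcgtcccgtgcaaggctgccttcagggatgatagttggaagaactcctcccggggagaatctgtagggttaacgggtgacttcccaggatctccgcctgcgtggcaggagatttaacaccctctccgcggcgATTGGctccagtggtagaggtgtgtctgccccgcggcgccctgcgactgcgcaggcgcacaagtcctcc
Vamp8, chr6:72390668-72390917, minus strand: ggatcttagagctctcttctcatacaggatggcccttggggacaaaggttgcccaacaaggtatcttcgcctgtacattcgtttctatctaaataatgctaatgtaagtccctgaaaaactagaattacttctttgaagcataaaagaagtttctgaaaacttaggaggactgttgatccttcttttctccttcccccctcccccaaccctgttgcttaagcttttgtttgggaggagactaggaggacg
TCAGCACC was found in Syn1 alone of the 53 members (1.89%) and in 1.49% of all 27025 promoters. TGACGTCA was found in Syn1 and Stxbp3, that is in 3.77% of members and 1.77% of promoters. CCAAT was present in 16 members (30.2%, against 37.5% of promoters) and GGGCGG in 34 (64.2%, against 35.4%). GGGCGG was held both by members that were higher in the hemibrain, such as Syt1, Stx1a and Sv2a, and by lower ones, such as Syngr2, Stx11 and Stxbp3. A match describes the letters of this window and is not a bound site, and a motif that was not found says nothing of the factor.

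Most of the fusion genes were higher in the hemibrain than in the reference. Of the 69 members, 42 were higher (60.9%, against 34.5% of all genes), 15 were lower (21.7%, against 27.4%), and 12 met neither call. Without the 3 members not detected in either dye on any array (Cplx4, Stx19 and Syt14), 41 were higher and 14 were lower. The median of the members' mean log2 ratios was 1.32, and that of all genes was 0.13. A log2 ratio of at least 2 on every array with a value was found for 30 members (43.5%, against 11% of all genes). Stx11 alone stood at -2 or below on every array (1.45%, against 5.75%). Detection was not required for these counts. Syt4 and Sytl4 of the 30 were not detected in Cy-3 on any array, and Stx11 was detected in Cy-5 on 6. Vamp2 had 9 values, Syt7 6, and Syn2 and Syt13 5 each. The hemibrain signal of 55 members (79.7%) was detected on every array with a value, compared with 65.6% of all genes. In Cy-3 this held for 50 members (72.5%) and 73.2% of all genes. When only genes detected in both dyes on all 10 arrays were tested, 25 of 39 members were higher (64.1%, against 36.6% of such genes) and 7 were lower (17.9%, against 29.1%). These shares describe the set, and no test was made of the set as a whole.

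**Figure D1:**
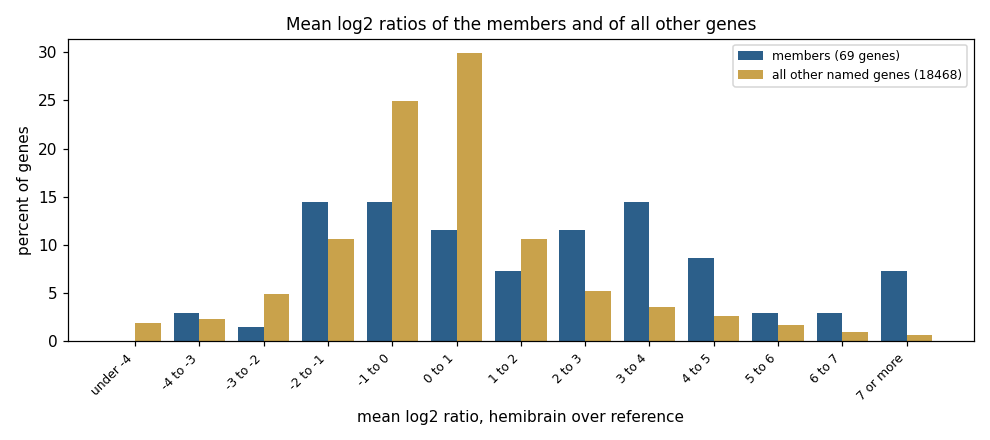
Percent of the 69 members (blue) and of the 18468 other named genes (yellow) by mean log2 ratio of hemibrain (Cy-5) over reference (Cy-3), in steps of 1. The members are spread over the range, with 14.5% between 3 and 4 and 7.25% at 7 or more, where 3.60% and 0.704% of the other genes lay.

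Among the SNAP-25 family, which contributes the plasma membrane SNARE that carries a pair of helices, 3 of 4 members were higher and 1 was lower. Over all genes, 34.5% were higher and 27.4% lower. Snap25, the neuronal form, had log2 ratios from 6.00 to 7.51 with a median of 6.38, and its mean was 6.51 ± 0.42 (SD, n = 10; limma's adjusted p = 2.95e-13). Snap23, the form found in most tissues, ranged from -1.95 to -0.97 with a median of -1.58 and a mean of -1.57 ± 0.27 (SD, n = 10). The ranges of these paralogs lay on opposite sides of 0 and did not overlap. Snap47, which is found on intracellular membranes of neurons, had a mean of 2.53 ± 0.18 (SD, n = 10). Snap29, a SNARE of endosomes and autophagosomes, had one of 0.93 ± 0.23 (SD, n = 10) by its brightest probe. The other 2 probes of Snap29 were called lower, at -2.18 and -2.24.

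The VAMP family, the SNAREs of vesicles, was split, with 4 of 7 members higher and 3 lower, against 34.5% and 27.4% of all genes. The synaptobrevin genes were both higher. Vamp1 ranged from 3.21 to 4.12 (median 3.88, mean 3.83 ± 0.25, SD, n = 10) and Vamp2 from 2.98 to 4.32 (median 3.72, mean 3.73 ± 0.48, SD, n = 9) by its brightest probe. The other 2 probes of Vamp2, detected in both dyes on all 10 arrays, were also higher but gave 1.95 ± 0.45 and 1.90 ± 0.62, so that its distance from Vamp1 depends on the probe. Vamp4, a SNARE of the trans-Golgi network, was at 2.24 ± 0.30 and Vamp7, which serves late endosomes and lysosomes, at 1.27 ± 0.26 (SD, n = 10). The 3 lower members were Vamp3, Vamp8 and Vamp5. Vamp3, or cellubrevin, was the lowest, with a mean of -3.03 ± 0.96 (SD, n = 10), a median of -2.82 and a range from -5.17 on C10-415 to -1.48 on C10-416. Its Cy-5 signal was detected on 7 of 10 arrays, where it ran from -3.10 to -1.48 (mean -2.57 ± 0.52). Vamp8, or endobrevin, ranged from -2.29 to -1.54 (median -1.86, mean -1.85 ± 0.20, SD, n = 10), and Vamp5, first known from muscle, had a mean of -1.75 ± 0.22 (SD, n = 10).

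Syntaxins of the plasma membrane lay on both sides of the reference. Stx1a, which anchors the release complex at nerve terminals, was higher on every array, from 3.12 to 4.29 (median 3.96, mean 3.89 ± 0.37, SD, n = 10). Stx3, known from retinal synapses and epithelia, was at 1.32 ± 0.43 (SD, n = 10). Stx4a, which serves secretion in many tissues, had values from -1.04 to -0.61 (median -0.81, mean -0.84 ± 0.15, SD, n = 8). Stx11, known from lymphocytes and other cells of the immune system, was the lowest of all 69 members, with a mean of -3.66 ± 0.81 (SD, n = 10), a median of -3.48 and a range from -5.06 to -2.49, and its Cy-5 signal was detected on 6 arrays, where it ran from -3.98 to -2.49. Stx2 missed the fold limit by its brightest probe (-0.55 ± 0.32), but its other probe was called lower, at -1.97 ± 0.57. Stx19 was not detected in either dye on any array. The family median over all 7 members, -0.04, was the value of Stx19, and over the 6 members detected in at least 1 dye it was 0.39.

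The means of the 8 syntaxins of the Golgi, endosomes and endoplasmic reticulum ran from -0.42 to 1.06, with a median of 0.56. By the brightest probes, 4 of these were higher and 0 were lower, against 34.5% and 27.4% of all genes. The other probes of Stx16 and Stx17 were called lower, at -1.52 and -0.63. Stx16, a SNARE of the trans-Golgi network, was the highest, from 0.86 to 1.21 (median 1.09, mean 1.06 ± 0.13, SD, n = 10). Stx5a, which serves traffic between endoplasmic reticulum and Golgi, was the lowest, from -0.89 to -0.06 (median -0.43, mean -0.42 ± 0.27, SD, n = 10). Stx12, an endosomal syntaxin, was at 1.04 ± 0.22, Stx6 of the trans-Golgi network at 0.76 ± 0.16, and Stx17 of autophagosomes at 0.70 ± 0.21 (SD, n = 10). The endosomal syntaxins Stx7 (0.42) and Stx8 (-0.04) and Stx18 of the endoplasmic reticulum (0.25) met neither call. The call of Stx17 rested on the loess step, since its mean was 0.46, under the fold limit, with the deposited log ratio.

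Syntaxin-binding proteins had no shared direction, with 2 of 6 higher and 3 lower, against 34.5% and 27.4% of all genes. Stxbp6, encoding amisyn, which binds syntaxin and SNAP-25, was the highest of the family, from 3.27 to 4.59 with a median of 4.17 and a mean of 4.09 ± 0.40 (SD, n = 10). Stxbp2 and Stxbp3, which act in secretion outside the nervous system, were lower. Stxbp2 ranged from -1.73 to -0.33 (median -0.93, mean -1.02 ± 0.52, SD, n = 10), and Stxbp3, the lowest of the family, from -1.72 to -0.82 (median -1.14, mean -1.17 ± 0.28, SD, n = 10). Stxbp4, or Synip, was at -0.70 ± 0.58, and its call was lost without C10-434, where it stood at -2.27 (mean without that array -0.52). The other probes of Stxbp4, at -0.55 and -0.44, met neither call. Stxbp5, encoding tomosyn, was at -0.06 ± 0.13 by its brightest probe.

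Complexins 1 and 2, the main forms of the forebrain, were higher on every array. Cplx1 ranged from 5.45 to 6.51 (median 5.88, mean 5.89 ± 0.35, SD, n = 10) and Cplx2 from 4.60 to 5.30 (median 4.96, mean 4.96 ± 0.19, SD, n = 10; limma's adjusted p = 5.23e-14). Cplx3, known above all from ribbon synapses of the retina, ranged from 2.28 on C10-423 to 3.28 on C10-416, with a median of 2.91 and a mean of 2.84 ± 0.35 (SD, n = 10) by its brightest probe. Its other probe, also detected in both dyes on all 10 arrays, was at 0.52 ± 0.15 and met neither call. Cplx4, the other retinal form, had a mean of -1.02 ± 0.50 and values from -2.32 to -0.43 (median -0.91), but it was not detected in either dye on any array, so its ratio is one of signals near background.

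**Figure D2:**
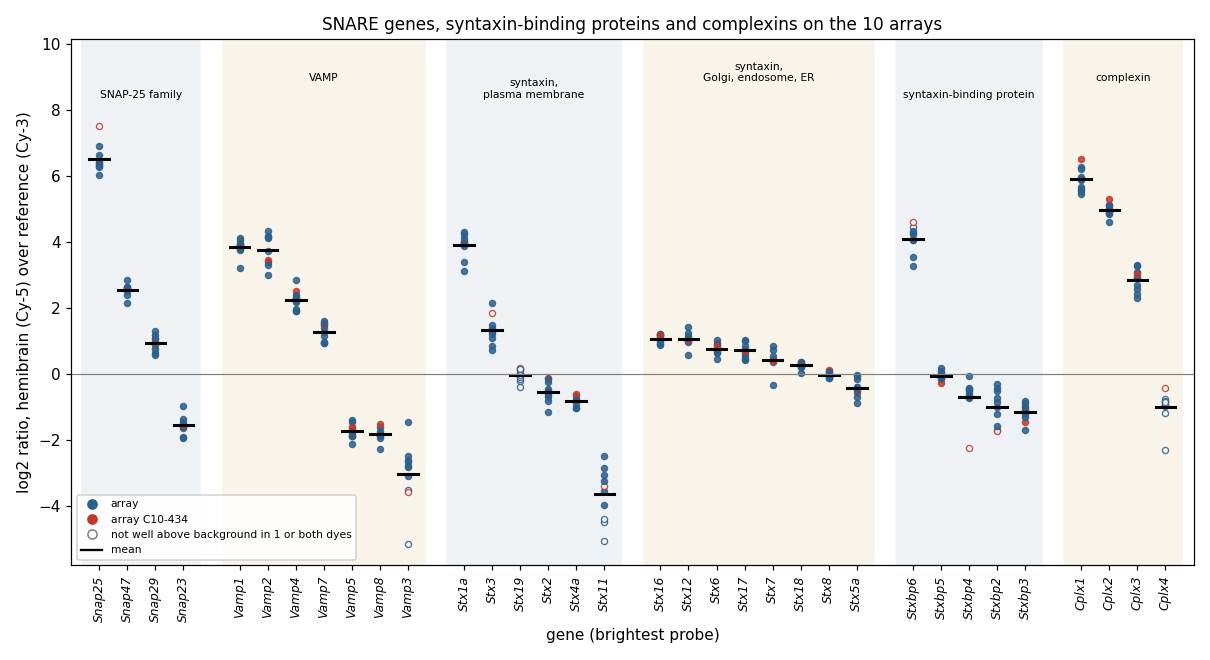
Log2 ratio of hemibrain (Cy-5) over reference (Cy-3) for the SNARE genes, syntaxin-binding proteins and complexins reported here, by the brightest probe. Points are arrays (red, C10-434), open points were not detected (not well above background) in 1 or both dyes, and black bars are means. Snap25, Vamp1, Vamp2, Stx1a, Cplx1 and Cplx2 lie above 2 on all arrays with a value, while Snap23, Vamp3, Vamp5, Vamp8, Stx11 and Stxbp3 lie below 0.

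Synaptotagmins, which carry C2 domains that bind calcium or phospholipid, were the largest family, with 13 of 16 members higher, 2 lower and a median of 2.93. Over all genes, 34.5% were higher and 27.4% lower. Syt4, a form without calcium binding in its first C2 domain, had log2 ratios from 8.59 to 9.94 with a median of 9.26 and a mean of 9.28 ± 0.39 (SD, n = 10; limma's adjusted p = 3.46e-14). It was detected in Cy-5 on all 10 arrays but in Cy-3 on 0, so these ratios are over signals near background. For such probes the mean signal in the detected dye was set against the lowest signal that counted as detected in the other dye, or the probe's own if higher, which gives a bound that a dye effect could also change. By this bound the hemibrain signal of Syt4 was at least 189-fold higher, a log2 ratio of at least 7.56, which does not place Syt4 above Snap91, Synpr or Syt1. Detection in Cy-5 on every array and in Cy-3 on 0 arrays was found for 2.90% of members, Syt4 among them, against 0.631% of all genes. Syt1, the calcium sensor of fast release in the forebrain, ranged from 6.91 to 9.12 (median 7.63, mean 7.68 ± 0.62, SD, n = 10). Its 5 probes were all higher, with means from 5.53 to 7.68. Syt2, the fast sensor of hindbrain and of some interneurons, was detected in Cy-5 on 7 arrays but in Cy-3 on 0. It ranged from 0.18 to 4.10 (median 2.47, mean 2.39 ± 1.18, SD, n = 10). Its bound was 2.47-fold higher over all 10 arrays. Those without detection in Cy-5 are included, so the bound of Syt2 is not a strict lower limit. Syt16, which does not bind calcium, was at 7.55 ± 0.59, with values from 6.44 to 8.53 and a median of 7.71, and was detected in Cy-3 on 5 arrays, where it ran from 6.44 to 7.77.

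The other higher synaptotagmins had means from 0.74 to 4.30. Syt11 (4.30 ± 0.36), close in sequence to Syt4, came first, followed by Syt9 (3.59 ± 0.42), another fast sensor, and Syt3 (3.52 ± 0.33). Syt17 was at 3.10 ± 0.45, Syt12 at 2.70 ± 0.24 (SD, n = 10 each) and Syt7, a sensor of slow release, at 2.95 ± 0.15 (SD, n = 6). Syt13 ranged from 2.51 to 2.76 with a median of 2.70 and a mean of 2.67 ± 0.11 (SD, n = 5), the other 5 arrays having no value because the spot carried an outlier flag. Its other probe, detected in both dyes on all 10 arrays, was at 0.30 ± 0.32 and met neither call, so the ratio and the spread of Syt13 depend on the probe. Syt14 (0.74) was not detected in either dye on any array. Syt15 (0.58 ± 0.57) met neither call. Syt8 was detected in Cy-3 on 7 arrays but in Cy-5 on 0, and the bound gave no fold. Syt10, known from the olfactory bulb, was the lowest of the family by its brightest probe, from -3.31 to -1.15 (median -1.88, mean -2.0 ± 0.84, SD, n = 10).

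The synaptotagmin-like proteins, effectors of Rab27 in secretory granule transport, had no shared direction. Of these 5 genes, 2 were higher and 1 was lower, against 34.5% and 27.4% of all genes. Sytl4, or granuphilin, ranged from 2.07 to 5.45 (median 4.48, mean 4.20 ± 0.93, SD, n = 10). It was detected in Cy-5 on 9 arrays but in Cy-3 on 0. Its bound was 6.19-fold higher over all 10 arrays. These include C10-434, where Cy-5 was not detected, so the bound is not a strict lower limit. Sytl2 was at 1.81 ± 0.23. Sytl1, the lowest, ranged from -2.32 to -1.35 with a median of -1.76 and a mean of -1.79 ± 0.33 (SD, n = 10). Sytl5 (0.17) and Sytl3 (-0.22) met neither call, and Sytl3 was detected in Cy-5 on 1 array.

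Proteins of the vesicle membrane and surface were mostly higher, namely 3 of 6 synaptophysin and synaptogyrin genes (2 were lower), 2 of 2 SV2 genes and 2 of 3 synapsins. The shares over all genes were 34.5% higher and 27.4% lower. Synpr, encoding synaptoporin, ranged from 7.54 to 9.42 (median 8.50, mean 8.44 ± 0.53, SD, n = 10). It was detected in Cy-3 on 6 arrays, where it ran from 7.54 to 8.83, and the highest value, on C10-434, was not among these. Syp, its close relative synaptophysin, ranged from 2.82 to 4.74 (median 3.37, mean 3.41 ± 0.54, SD, n = 10). Syngr3, a synaptogyrin of brain vesicles, ranged from 2.72 on C10-435 to 4.17 on C10-413 (median 3.33, mean 3.31 ± 0.47, SD, n = 10). Syngr2, or cellugyrin, which is found mainly outside neurons, was lower, from -2.88 to -1.95 (median -2.29, mean -2.33 ± 0.28, SD, n = 10), as was Syngr4 (-1.75 ± 0.46). Syngr1, the other brain form, was at -0.46 ± 0.21 by its brightest probe. Both measured SV2 genes were higher. Sv2a, whose product binds the antiepileptic drug levetiracetam, ranged from 4.27 to 5.23 (median 4.52, mean 4.61 ± 0.29, SD, n = 10), and Sv2b had a mean of 6.50 ± 0.50 (SD, n = 10). Among the synapsins, Syn2 was highest, from 5.16 to 5.67 (median 5.45, mean 5.45 ± 0.21, SD, n = 5), and Syn3 was at 3.37 ± 0.37. Syn1 was near 0 by its brightest probe, from -0.65 to 0.16 (median -0.17, mean -0.18 ± 0.25, SD, n = 10; limma's adjusted p = 0.0638). Snap91, which encodes the clathrin adaptor AP180 of vesicle recycling and is no SNARE, had a mean of 9.16 ± 0.60 (SD, n = 10) and values from 8.43 to 10.58 with a median of 9.06. It was detected in Cy-3 on 8 arrays, where it ran from 8.43 to 9.21 (mean 8.91 ± 0.26).

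**Figure D3:**
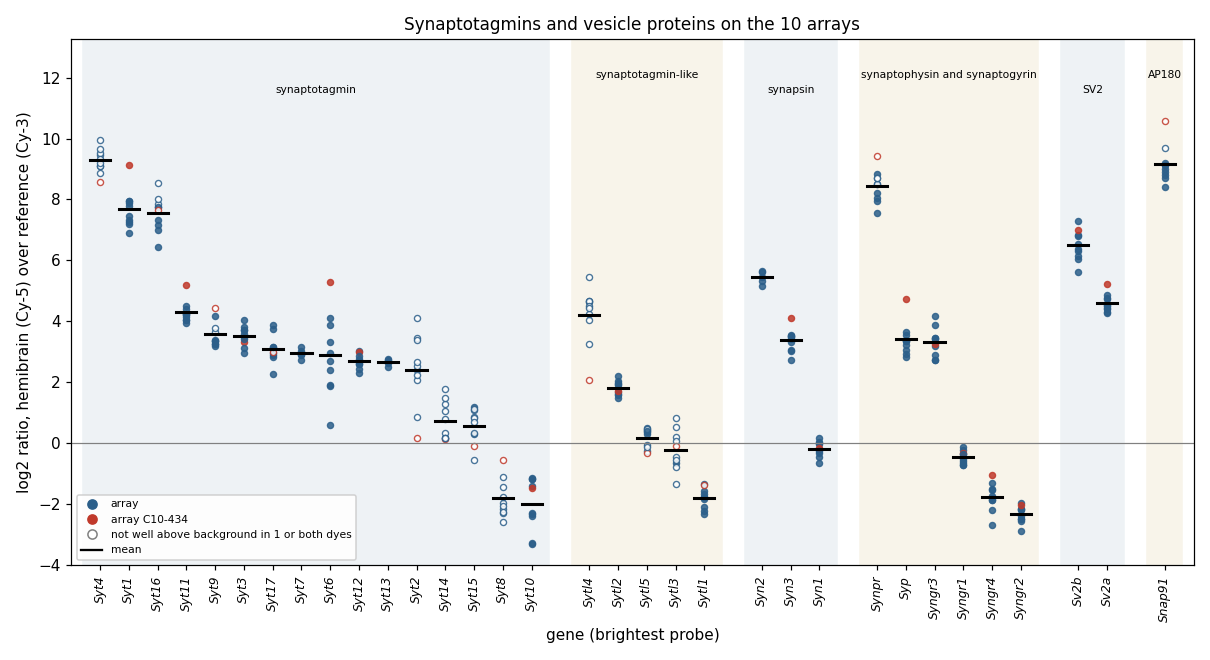
Log2 ratio of hemibrain (Cy-5) over reference (Cy-3) for the synaptotagmins, synaptotagmin-like proteins, synapsins, synaptophysin and synaptogyrins, SV2 proteins and AP180, by the brightest probe. Points are arrays (red, C10-434), open points were not detected in 1 or both dyes, and black bars are means. Snap91, Synpr, Syt1 and Syt16 have means above 7, as does Syt4, whose points are all open, Syt6 and Syt2 the widest spread among the synaptotagmins, and Syn1 lies near 0.

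Within an array, brain forms were set against relatives that are also found in other tissues, in 5 pairs. They stood above these relatives on every array with both values. The pairs were chosen with earlier results known. By the brightest probes, each brain form lay above the reference and each relative below it on every array with a value. The direction of the differences was thus fixed beforehand and adds no support. Vamp4 (2.24) and Vamp7 (1.27), which were higher, and the brain form Syngr1 (-0.46) are in no pair. Ratios of different genes are compared here and not their levels, since probes differ in brightness. The log2 ratio of Snap25 exceeded that of Snap23 by 7.25 to 9.08 on the 10 arrays (median 8.09), and by 7.25 to 8.56 on the 9 where both genes were detected in both dyes. Vamp2 exceeded Vamp3 by 5.65 to 8.89 on the 9 arrays with both values, and by 5.65 to 7.12 (SD 0.62) on the 6 of these where both genes were detected in both dyes. This difference also rests on the brightest probe of Vamp2. Vamp1 exceeded Vamp8 by 5.41 to 5.98 on 10 arrays. Stx1a exceeded Stx4a by 4.16 to 5.32 on 8 arrays. Among vesicle proteins, Syp exceeded Syngr2 by 5.32 to 6.78. The difference of Vamp1 and Vamp8 had the smallest SD of these pairs (0.20). In a pair of calcium sensors, Syt1 and Syt2, the difference ran from 3.77 to 8.94 (SD 1.42), with Syt2 not detected in Cy-3. The difference of Stx1a and Stx4a depends on the probe of Stx4a.

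Probes of the same gene did not always give the same ratio. Of the 69 members, 35 had more than 1 probe with enough values, and 6 of these (17.1%, against 7.78% of the 6592 such genes) had probes called in opposite directions, namely Snap29, Stx16, Stx17, Stx3, Stx4a and Syt10. In 14 genes the probe means lay more than 2 apart on the log2 scale. For Stx3, 4 probes ran from -2.14 to 5.86, and the 2 probes for a single one of its transcript accessions gave 1.32 and 5.86. For Stx4a the brightest probe gave -0.84 and the other 1.08. Syt10 gave -2.0 by the brightest probe and 3.85 by the other, which was detected in Cy-3 on 2 arrays. The direction of these 6 genes thus depends on the probe. Among genes whose probes did not oppose each other, Syn1 gave -0.18 and 3.16, both probes being detected in both dyes on 10 arrays. Syngr1 ran from -0.46 to 5.50 and Stxbp5 from -0.40 to 4.04, so the values near 0 given above for these 3 brain genes hold for the brightest probe. Probe means ran from -0.08 to 4.17 for Syn3, from 0.09 to 3.66 for Syt7 and from -0.21 to 2.24 for Vamp4. The calls of these genes depend on the probe, as do those of Syt13, Cplx3, Stx2, Stx6 and Stxbp4. In contrast, every probe of Snap23 (3 probes, -2.17 to -1.57), Vamp3 (2 probes, -3.40 and -3.03), Vamp8 (2 probes, -2.55 and -1.85), Cplx2 (4 probes, 4.16 to 5.04) and Syt1 was called in the same direction. All 3 probes of Syt16 were higher, at 3.35 to 8.85. Which transcript ends the probes cover was not determined.

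**Figure D4:**
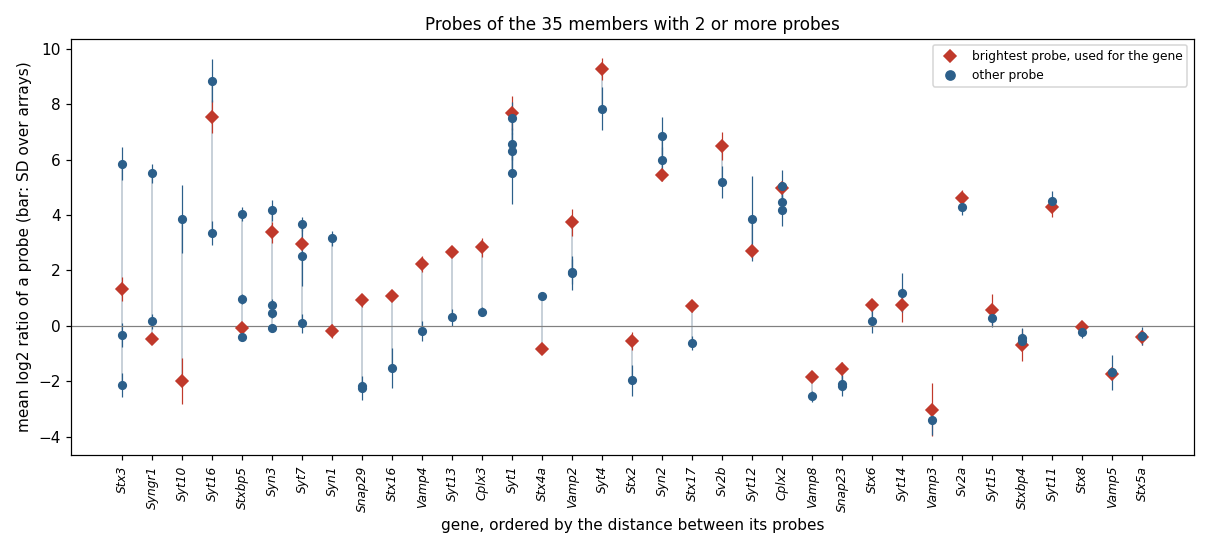
Mean log2 ratio of each probe of the 35 members with 2 or more probes, with the SD over arrays as bars. Red diamonds are the brightest probes, used for the gene, and genes are ordered by the distance between their probes. Stx3, Syngr1 and Syt10 have probes 5.85 or more apart, while those of Vamp5 and Stx5a coincide within 0.06.

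The spread over the 10 hemibrains was somewhat wider for the members than for all genes. The median SD of the log2 ratio was 0.35, compared with 0.30 over all genes. Of the members detected in Cy-5 throughout, the 5 with the largest SD were Syt6, Syt10, Syt1, Snap91 and Syt16. On the arrays where both dyes were detected, the SD was 0.26 for Snap91 (n = 8) and 0.48 for Syt16 (n = 5). Syt6, a synaptotagmin related to Syt3 and Syt10, varied most. Its log2 ratio ran from 0.59 on C10-413 to 5.29 on C10-434, with a median of 2.83 and a mean of 2.90 ± 1.33 (SD, n = 10). Both dyes were detected on all 10 arrays. The spread was wider in Cy-5, where the normalized log2 signal ran from 8.62 to 13.23, than in Cy-3, where it ran from 7.03 to 9.83. The correlation of Syt10's probes over the 10 arrays was 0.52, and that of Snap23's 3 probes was 0.62 to 0.83. That of Syt1's brightest probe with its other probes was 0.95, 0.87, -0.33 and -0.58. For Syt16 the brightest probe gave -0.02 and 0.40 with the others. The spread of Syt1 and Syt16 over the arrays thus depends on the probe. Cplx3, Syngr3 and Syt13, which the study lists among its changed genes, had ranges over the arrays of 1.00, 1.45 and 0.257 by their brightest probes, and how these follow the diets was not examined.

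Array C10-434, the one with the weak Cy-5 signal, was the highest array for 21 members (30.4%, against 22.1% of all genes) and the lowest for 8 (11.6%, against 11.8%). The 15 members with a log2 ratio of 4 or more were higher on C10-434 than their median over the arrays by 0.58 (median), and the 1127 genes of such ratios by 0.48. Across all members the median deviation was 0.10. Syt1 (9.12), Syp (4.74), Syt11 (5.20), Snap25 (7.51) and Snap91 (10.58) were each highest there, Snap25 and Snap91 without detection in Cy-3. Without this array the means were 7.52 for Syt1, 3.26 for Syp, 4.20 for Syt11 and 6.40 for Snap25, and 43 members were higher and 15 lower. The part of the weak signal in the high values was not tested.

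**Figure D5:**
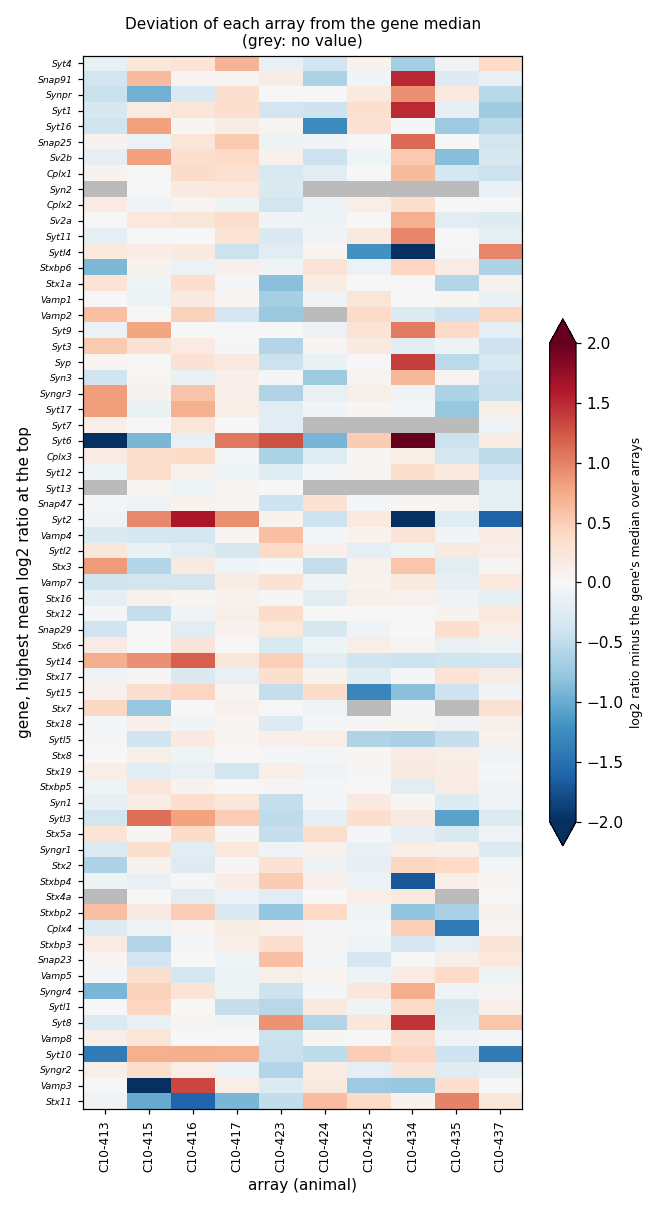
Deviation of each array from the gene's median log2 ratio over the arrays, for 67 members ordered by their mean ratio (red, above the median, and blue, below). The C10-434 column is red for most genes at the top of the list, Syt6 and Syt2 have the strongest contrasts among the synaptotagmins, and grey cells have no value.

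Slides were compared as the technical batch named by the file headers. There were 4 slides, 2 with 4 arrays and 2 with a single array. Between the slides with 4 arrays, limma called 0 of the 65 members tested at an adjusted p under 0.05, while 13 of 18272 genes (0.0711%) were called. At an unadjusted p under 0.05 there were 3 members (4.62%, against 7.96% of all genes), Stx11, Syt14 and Syt2. Stx11 had the smallest adjusted p (limma, 0.0845), with means of -4.48 on the first and -2.96 on the second slide, but its Cy-5 signal was detected on 1 of 4 arrays of the first and 3 of 4 of the second. Syt2 had means of 3.37 and 1.79 and Syt14 of 1.28 and 0.21, of which Syt2 was not detected in Cy-3 and Syt14 in neither dye. The slides hold different animals, and animal, diet and slide cannot be told apart in this comparison. Stx7, Syn2, Syt7 and Syt13 had too few values to be tested.

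Other genes of the release pathway, listed apart from the members, were also mostly higher in the hemibrain. Of 24 genes of the active zone and of vesicle priming, 22 were higher and 1 was lower, with a median log2 ratio of 3.93. Of those detected in Cy-3 on at least 1 array, the highest was Pclo, encoding the active zone scaffold piccolo, at 7.93 ± 0.71, and the lowest was Rab3d, the Rab3 form of exocrine cells, at -1.52 ± 0.16 (SD, n = 10 each). Cadps2, a priming factor of dense core vesicles, was not detected in Cy-3 on any array and was at least 116-fold higher by the bound. All 4 genes of SNARE disassembly were higher. Napb, the brain form of SNAP adaptor for the ATPase NSF, was at 3.92 ± 0.27, and Napa, the general form, at 1.22 ± 0.32. Among 21 genes of vesicle endocytosis, 15 were higher and 4 lower (median 1.63), from Dnm3, a dynamin detected in Cy-3 on 4 arrays, at 7.66 ± 0.48 to Itsn2, a scaffold, at -1.74 ± 0.38. Of 7 vesicular transmitter transporters 6 were higher. Slc32a1, the transporter of GABA and glycine, was the highest, at 6.65 ± 0.57, and Slc18a3, the transporter of acetylcholine, met neither call at 0.49 ± 0.72 (SD, n = 10 each). The median over all genes was 0.13 on the same scale, and 34.5% of all genes were higher and 27.4% lower.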

How the data were processed

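Dual dye arrays of 10 hemibrains (Cy-5) against a common RNA (Cy-3) were analysed. The authors scanned the slides and deposited scanner files written by Feature Extraction (10.10.1.1 per the file headers), with intensity values on a linear scale and log10 ratios of Cy-5 over Cy-3 after its background correction and dye normalization. They also deposited a table of log2 ratios. Set against the scanner ratios, its correlation was at least 0.997 per array, which settles scale and direction. Its column medians lay between -0.05 and 0.10, and its centring is not stated.

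Log2 ratios of the processed signals were normalized by loess within each array (span 0.3, 4 iterations, without control or outlier-flagged spots), and spots of a probe were averaged. Probes were named through the RefSeq accession in the files (GRCm38.p6, names only), which matched 66.1% of 41174 probes. A gene was taken by its brightest probe. Ratios were tested against 0 with limma 3.58.1 in R 4.3.3 over all probes with at least 5 values, with Benjamini-Hochberg adjustment. In Python 3.11.15, numpy 2.4.6, pandas 2.3.3 and matplotlib 3.10.9 were used. A probe dim in 1 dye on every array was given as a bound against the lowest signal well above background. The scripts were tested on simulated data. Correlations over the 45 array pairs ran from 0.866 to 0.967, and 0 pairs held identical values.

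Members were named by family, except 2 that are counted in the totals but not reported here, with full values for the highest and lowest of each family of 3 or more, the core release genes and their paralogs, 3 genes of the study's list and the 5 most variable members. Members, families and lists were chosen with earlier results of these data known. Other members are given by their means, and those singled out for differing probes were chosen after their values were seen. Alternatives were the deposited ratio without loess, median centring, the deposited table, normexp (on median signals, as the files used here carry no mean signals), a subtraction with floor 0.5 and offset 50 added after seeing the data, all probes of a gene, only probes bright in both dyes, a slide block and each array left out. Diet was not analysed.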

Additional observations from a re-analysis of the deposited data

Results flagged for a closer look

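A gap test (Dixon's, at the 95% level, critical value 0.466 for 10 arrays) was applied to 80 measures, the ratios of single members and the family medians. It set 1 array apart in 11 of these, where chance sets about 1 in 20 apart, or 4 of the 80. Ratios from the same array are not independent of each other. The array was C10-434, whose Cy-5 signal was weakest, in 5 cases. There Syt1 stood at 9.12 (6.91 to 7.97 on the other arrays), Syp at 4.74 (2.82 to 3.65), Syt11 at 5.20 (3.94 to 4.50), Stxbp4 at -2.27 (-0.73 to -0.08) and the median of the syntaxin-binding proteins at -0.89 (-0.38 to -0.06). On C10-423, Vamp1 stood at 3.21 (3.75 to 4.12 elsewhere), Vamp8 at -2.29 (-1.94 to -1.54) and Stx18 at 0.00867 (0.19 to 0.36). On C10-415, Stx12 stood at 0.55 (0.95 to 1.40) and Stx7 at -0.34 (0.34 to 0.84 on the other arrays with a value). On C10-435, Cplx4, which was dim in both dyes, stood at -2.32 (-1.19 to -0.43). The cause of these gaps was not tested.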

How the results depend on the processing

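In the settings run over all members, 38 to 45 were higher and 11 to 18 were lower, against 42 and 15. With each array left out in turn, 40 to 43 were higher, 15 to 16 were lower and 0 differed between slides. Only probes well above background in both dyes left 39 members, of which 25 were higher (64.1%, against 36.6% of 10533 genes) and 7 lower (17.9%, against 29.1%), so the smaller counts come with fewer genes tested. Averaging all probes of a gene turned 7 members, to -1.16 for Snap29, 1.49 for Syn1, 0.99 for Syngr1, 0.93 for Syt10, -0.23 for Stx16, 0.32 for Stx4a and 1.14 for Stxbp5, as probes of these genes differ. It also gave 1 member between slides, Syt13 (difference -1.32, limma's adjusted p = 0.0369), whose brightest probe had no value on the second slide, so that different probes were averaged there. That average moved the median of the syntaxin-binding proteins from -0.38 to 0.29. Loess raised the median of all genes from -0.0037 to 0.13 and that of the members from 1.13 to 1.32, and ratios are best read against that shift. Over the 658 values of single members in other settings, 617 kept direction and side of the limits, 21 lost and 13 gained a call, and 7 turned. Normexp with an offset of 50 lowered the median of the members to 0.80. Signal over background and the number of arrays limit the precision. No paired analysis was possible because the arrays form 1 group. The deposited table gave 41 higher and 18 lower.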
